A study of Rattus norvegicus with 8 samples.

Results

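The Bcl-2 family was followed through all 8 arrays of a study of traumatic brain injury in the rat hippocampus. Its members are a list of 10 genes, and a probe was taken when the gene name on the array, without the endings that mark predicted or mapped genes, was that of a member. All 10 of 10 were found among the 18360 gene names on the array, on 17 of its 41012 probes. The study asked which transcripts set apart neurons that die after the injury from neighbours that live, and measured RNA of CA3 pyramidal neurons on single-colour Agilent whole-genome arrays, 2 per group. All rats were Sprague-Dawley. Naïve rats had no treatment. Sham rats had the surgery without the blow, and their sample time was 24 h. The other groups came from rats with a moderate fluid percussion injury, a pulse of fluid against the dura, whose brains were taken after 24 h. Dying neurons were those stained by Fluoro-Jade, a dye for degenerating neurons, and surviving neurons were unstained cells of the same subfield, so that the fate of a cell was read from 1 dye at 1 time. Cells were cut by laser from 10 µm frozen sections, about 600 neurons per sample of injured rats, and the neurons of several rats were pooled in each, which hides the spread between animals. Whether the surviving and dying pools with the same number came from the same rats was not given in the sources used here.

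Proteins of the Bcl-2 family decide whether the outer membrane of the mitochondrion is breached, the step that commits most vertebrate cells to apoptosis. Anti-apoptotic members such as Bcl-2, Bcl-xL and Mcl-1 hold the pore-forming effectors Bax and Bak in check, and BH3-only members such as Bim, Bad and Bid carry stress signals that free or activate these effectors. Once the membrane is open, cytochrome c reaches Apaf-1 in the cytosol and starts the caspase cascade. Much of the control lies in the proteins themselves, by cleavage, phosphorylation and movement to the mitochondrion, which RNA does not show.

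Values are log2 of the processed signal over the median of its array, called log2 scaled signal here, and differences are between means of 2 arrays on that scale. A probe was tested between groups where both arrays of at least 1 group were marked as well above background, and a call is an adjusted p under 0.05 from limma over all probes tested. The number of arrays limits the precision. Per array, between 20193 and 29347 probes were well above background. The arrays of dying neurons were the least alike, with an SD of 1.18 for the log2 difference between replicates against 0.54 in sham, 0.68 in surviving neurons and 0.74 in naïve rats. Their median signals before scaling were 19.2 and 52.6. The naïve and sham arrays shared 1 slide, scan session and extraction protocol, and the arrays of injured rats another, so that injury and these steps cannot be told apart where sham is the control. The comparison of surviving with dying neurons lies within 1 slide, but the labels name 2 amplification kits without giving the one used for each array. The choice of scaling also matters against sham. With each array divided by its 75th percentile in place of its median, the median difference over all probes tested moved by 0.78 for surviving and by 0.73 for dying neurons. It was -0.43 and -0.46 with the main scaling. The differences of Bnip3, Bok and Bak1 in dying neurons, and of Bnip3 in surviving neurons, are also given relative to it.

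**Figure D1:**
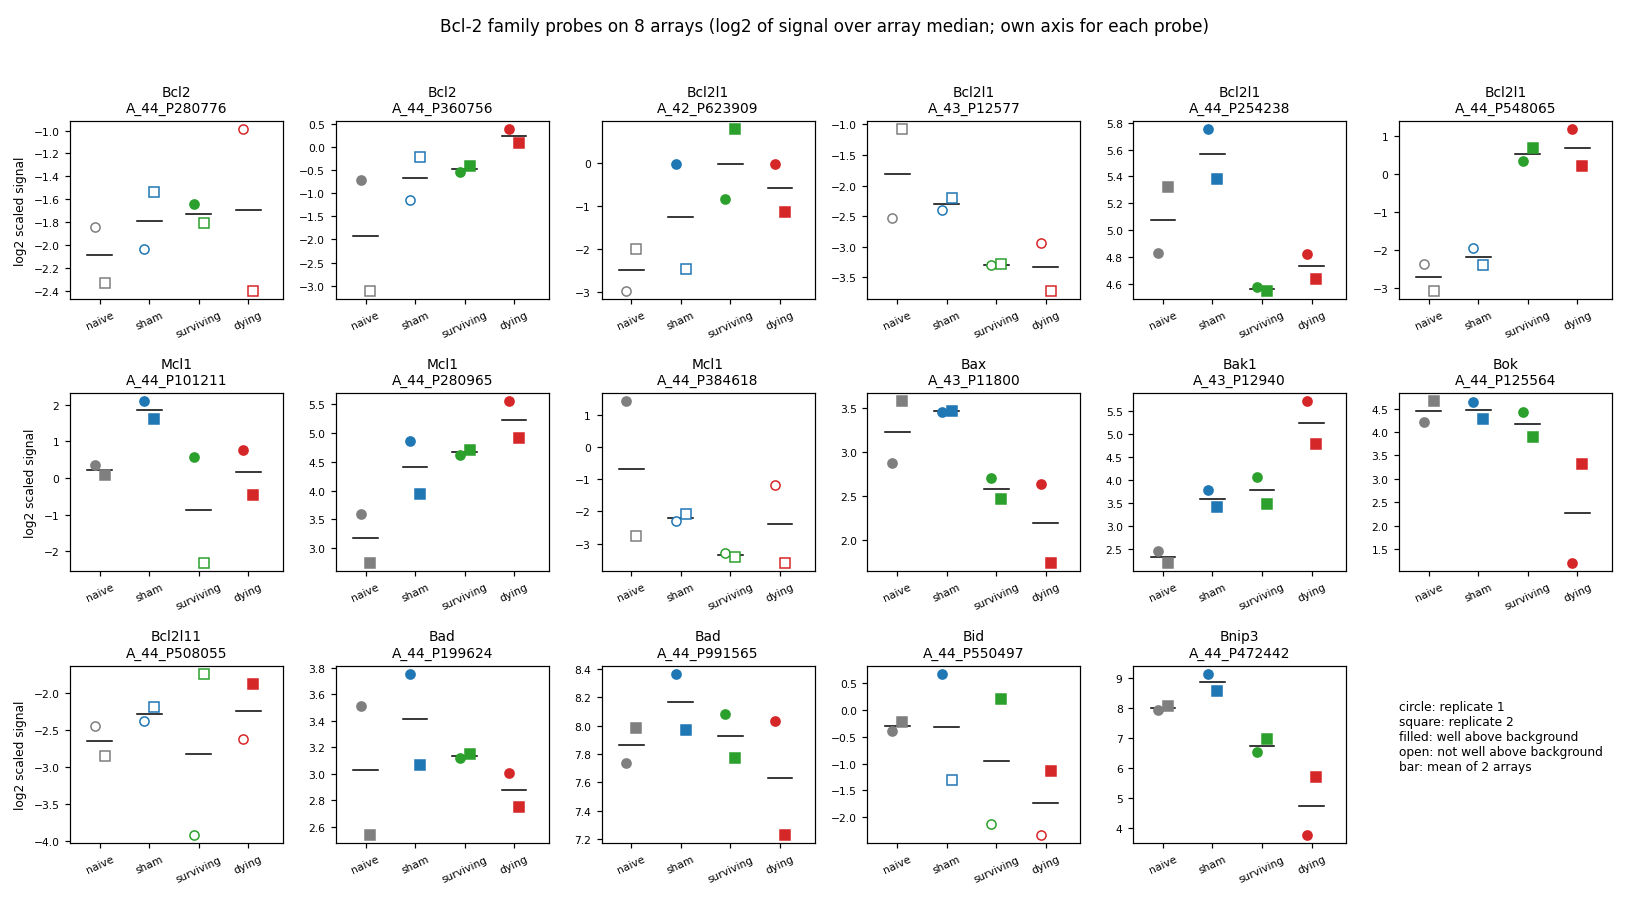
Log2 scaled signal (log2 of processed signal over array median) of each of the 17 probes on the 8 arrays, with an axis of its own for each probe. Circles and squares are replicates 1 and 2, bars are means of 2 arrays, and open symbols were not well above background. Bnip3 is highest in sham and lowest in dying neurons, Bak1 is highest in dying neurons, and the groups of several dim probes overlap.

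Among the anti-apoptotic members, Bcl2l1, which encodes Bcl-xL, the main survival protein of the family in adult neurons, gave different pictures by probe. The probe A_44_P548065, for transcript variant 2, had log2 scaled signals of -2.36 and -3.06 (naïve), -1.95 and -2.38 (sham), 0.34 and 0.70 (surviving neurons), 1.18 and 0.21 (dying neurons). All 4 arrays of injured rats lay above all 4 of the controls, while the surviving and dying arrays overlapped. It was well above background on the 4 injured arrays and on 0 of the 4 controls, so it entered the test only through the groups where it was high and its change has only a lower bound. Surviving neurons exceeded sham at least 1.68-fold (adjusted p = 0.0165) and dying neurons at least 1.89-fold (adjusted p = 0.00509). For these bounds, sham was set to the dimmest signal marked as well above background on its array, or to the probe itself where brighter. The adjusted p are of the fitted differences, with sham values that were not above background, and do not test the bounds. The call in surviving neurons was lost with quantile normalization (adjusted p = 0.0502), and without either sham array or either surviving array, where adjusted p rose to between 0.0948 and 0.143. With the normexp correction, a background correction that shrinks low signals, both calls were lost (adjusted p = 0.523 in surviving and 0.519 in dying neurons). The fitted differences were then 0.71 and 0.52, below the bounds, which are 0.75 and 0.92 on the log2 scale.

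The probe for variant 3 of Bcl2l1, A_44_P254238, was well above background on all 8 arrays. Its values were 4.83 and 5.32 (naïve), 5.75 and 5.38 (sham), 4.58 and 4.55 (surviving neurons), 4.83 and 4.64 (dying neurons). Both injured groups lay below both sham arrays, opposite to the probe for variant 2, with differences of -1.003 in surviving (adjusted p = 0.135) and -0.84 in dying neurons (adjusted p = 0.145). Neither difference passed the threshold. With quantile normalization the one in dying neurons turned to 0.39, and with the normexp correction the one in surviving neurons turned to 0.08. In a fit of the surviving and sham arrays alone the difference passed (adjusted p = 0.0470). Another probe of variant 2, A_42_P623909, ranged from -2.97 to 0.77 and its groups overlapped against sham. The last one, A_43_P12577, was spotted 10 times and was well above background on 0 arrays. The probes of 1 gene thus disagreed in direction, and no single value is given for Bcl2l1.

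Mcl1 encodes a short-lived survival protein that neurons need during development. Its probe A_44_P280965 had values of 3.60 and 2.75 (naïve), 4.87 and 3.94 (sham), 4.63 and 4.70 (surviving neurons), 5.55 and 4.92 (dying neurons). The dying arrays lay just above all others, and the naïve arrays lay lowest. Dying neurons were 0.83 above sham (adjusted p = 0.225) and surviving neurons were 0.57 below dying neurons (adjusted p = 0.573, turned to 0.75 with the normexp correction), so neither passed the threshold. With quantile normalization the rise from sham in dying neurons was 2.03 (adjusted p = 0.0273) and with the series table of the authors 1.63 (adjusted p = 0.0387). A second probe of the same transcript, A_44_P101211, went the other way, with 0.35 and 0.09 (naïve), 2.08 and 1.61 (sham), 0.57 and -2.32 (surviving neurons), 0.76 and -0.46 (dying neurons). Both injured groups lay below sham, by 1.70 in dying neurons (adjusted p = 0.146) and with no call in surviving neurons (adjusted p = 0.0688), where replicate 2 was not well above background and no size is given. Another probe with this gene name, A_44_P384618, carries the accession of a transcript described as similar to a hypothetical protein and was well above background only on naïve replicate 1.

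Bcl2, the founding member, was near the limit of these arrays. Its RefSeq probe, A_44_P280776, spotted 10 times, ranged from -2.40 to -0.99 and was well above background only on surviving replicate 1. The probe for the beta form, A_44_P360756, had values of -0.73 and -3.10 (naïve), -1.14 and -0.22 (sham), -0.54 and -0.41 (surviving neurons), 0.37 and 0.09 (dying neurons). The dying arrays were the highest, without overlap with any other group. With 0 sham arrays well above background, this probe entered the test of dying neurons against sham only through the dying arrays. With sham set as for the Bcl2l1 bounds, dying neurons were at least 1.37-fold above it. There was no call (adjusted p = 0.340, of the fitted difference and not of the bound). Surviving neurons were 0.71 below dying neurons (adjusted p = 0.627).

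Among the effectors, Bak1 encodes Bak, which sits in the outer membrane of the mitochondrion and forms pores when activated. Neurons are known to make little full-length Bak protein, which makes its RNA in captured neurons of interest. Its log2 scaled signals were 2.45 and 2.20 (naïve), 3.79 and 3.41 (sham), 4.08 and 3.49 (surviving neurons), 5.72 and 4.79 (dying neurons). The dying arrays stood above all others, the sham and surviving arrays overlapped, and the naïve arrays lay lowest. In dying neurons the mean was 5.25 ± 0.65 (SD, n = 2) against 3.60 ± 0.27 in sham, a rise of 1.66 with a standard error of 0.50 (adjusted p = 0.0295), or 2.12 relative to the median probe. Surviving neurons, at 3.78 ± 0.42, differed from sham by 0.19 (adjusted p = 0.812, sign turned without sham replicate 2 or surviving replicate 1) and were 1.47 below dying neurons (adjusted p = 0.162). Sham was 1.27 above naïve (adjusted p = 0.882). The call was lost without sham replicate 1, sham replicate 2 or dying replicate 1 (adjusted p = 0.107, 0.153 and 0.116). It was also lost with the normexp correction (1.08, adjusted p = 0.530), with no filter on dim probes (adjusted p = 0.0523) and in a fit of the dying and sham arrays alone (adjusted p = 0.0635), and with quantile normalization the difference was 2.74.

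Bok, a relative of Bax and Bak that is abundant in brain and can permeabilize mitochondria without them, showed the reverse. Its values were 4.23 and 4.65 (naïve), 4.65 and 4.27 (sham), 4.43 and 3.90 (surviving neurons), 1.21 and 3.32 (dying neurons). Naïve, sham and surviving arrays overlapped, and both dying arrays were lower, replicate 1 far more than replicate 2. Dying neurons, at 2.26 ± 1.49 (SD, n = 2), fell by 2.20 from the sham level of 4.46 ± 0.27 (adjusted p = 0.0334), or by 1.74 relative to the median probe. Surviving neurons were 1.90 above dying neurons (adjusted p = 0.179), and differed from sham by -0.30 (adjusted p = 0.783), a sign that turned with the 75th percentile scaling, quantile normalization, the normexp correction and the series table of the authors. The call was lost with all other scalings tried, with no filter on dim probes (adjusted p = 0.0556), in a fit of the dying and sham arrays alone (adjusted p = 0.0640) and with 5 of the 8 arrays left out in turn. Without dying replicate 1 the difference from sham was -1.14 (adjusted p = 0.132), and without dying replicate 2 it was -3.26 (adjusted p = 0.00335).

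Bax, the effector on which apoptosis of most neurons depends, is cytosolic until it is activated. Its probe was spotted 10 times and read well above background on all of them on every array, with an SD between spots of 0.05 to 0.40 on the log2 scale. The values were 2.87 and 3.57 (naïve), 3.46 and 3.46 (sham), 2.70 and 2.46 (surviving neurons), 2.64 and 1.75 (dying neurons). Both injured groups lay below both sham arrays and overlapped each other. The difference from sham was -0.87 in surviving (adjusted p = 0.234) and -1.26 in dying neurons (adjusted p = 0.0682), neither past the threshold, and the former turned to 0.01 with the series table of the authors and to 0.05 with the normexp correction. Without dying replicate 1 the latter was -1.71 (adjusted p = 0.0456). Of the 3 effector genes, with the main scaling and all arrays, Bak1 was called higher and Bok lower in dying neurons than in sham. Bax was not called in any comparison there. The call of Bok was lost in 7 of 11 other settings and that of Bak1 in 3 of 11. Both dying arrays lay below both sham arrays for Bok as well as for Bax, so the calls do not set these genes apart.

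Of Bad, Bcl2l11 and Bid, none was called. Bad, which is held inactive by phosphorylation downstream of growth factors, had 2 probes that read well above background on every array. One of them, A_44_P991565, read 7.74 and 7.98 (naïve), 8.37 and 7.97 (sham), 8.08 and 7.77 (surviving neurons), 8.03 and 7.23 (dying neurons). All the groups overlapped, and the probe had the smallest SD over the 8 arrays, 0.33, of the 8 member probes with that mark on all of them. The probe A_44_P199624 read 3.52 and 2.54 (naïve), 3.76 and 3.06 (sham), 3.12 and 3.15 (surviving neurons), 3.01 and 2.75 (dying neurons), with dying arrays below those of sham and of surviving neurons and the other groups overlapping. Their differences from sham were between -0.53 and -0.24, with adjusted p from 0.370 to 0.738, and all 4 turned positive with the 75th percentile scaling. Bcl2l11, which encodes Bim, a direct activator of Bax and Bak in neurons deprived of trophic support, was well above background only on dying replicate 2, with values from -3.92 to -1.74. Bid, which links caspase-8 to the mitochondrion, was well above background on 5 arrays and on no more than 1 array of sham, surviving or dying neurons, and ranged from -2.33 to 0.68 with all of these groups overlapping. Neither was tested between injured groups or against sham.

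Bnip3 encodes a BH3-domain protein of the outer mitochondrial membrane that promotes removal of mitochondria by autophagy and is a well-known target of the hypoxia factor HIF-1. It had the largest SD over the 8 arrays, 1.75, of the 8 member probes that were well above background on every array. Its promoter is shown because no other member fell as far. In RefSeq, on build GRCr8, the 250 bases before its start site are at chr1:203154963-203155212 on the minus strand, with the HIF-1 core motif ACGTG, searched on both strands, in capitals. The match, which reads on both strands with overlap, begins 99 bases before the start site.
Bnip3: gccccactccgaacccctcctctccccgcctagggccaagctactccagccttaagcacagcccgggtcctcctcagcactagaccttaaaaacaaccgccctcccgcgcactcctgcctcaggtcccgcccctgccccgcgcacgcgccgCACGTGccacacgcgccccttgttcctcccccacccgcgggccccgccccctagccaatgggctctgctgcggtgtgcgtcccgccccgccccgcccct
The motif was chosen after the values of Bnip3 were seen. It is held by 16.6% of the 33469 windows of this length in the table and by 3 of the 11 windows of members, 1 each of Bcl2 and Bnip3 and 1 of the 4 of Bcl2l1. A match is a description of the letters and not a sign of binding.

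The log2 scaled signal of Bnip3 was 7.93 and 8.06 (naïve), 9.16 and 8.57 (sham), 6.53 and 6.98 (surviving neurons), 3.77 and 5.71 (dying neurons). The groups did not overlap, with sham highest, then naïve, surviving and dying neurons. The means were 7.997 ± 0.09, 8.87 ± 0.42, 6.76 ± 0.32 and 4.74 ± 1.37 in that order of naïve, sham, surviving and dying (SD, n = 2). Dying neurons fell by 4.13 from sham with a standard error of 0.65 (adjusted p = 0.00336), or by 3.67 relative to the median probe. This call was kept when any single array was left out, with adjusted p up to 0.0392, and in 10 of 11 other settings, the exception being the normexp correction, where the difference was -4.43 and the adjusted p 0.519. Surviving neurons differed from sham by -2.11 (adjusted p = 0.0597), just short of the threshold, or by -1.69 relative to the median probe. This difference was not called with any other scaling tried. Surviving neurons were 2.02 above dying neurons (adjusted p = 0.152). The difference between surviving neurons and sham passed without either dying array (adjusted p = 0.0127 in both cases) and in a fit of those 2 groups alone (adjusted p = 0.00956). Sham was 0.87 above naïve (adjusted p = 0.882). Among 15254 probes that were well above background on every array, 25.6% had sham, surviving and dying arrays in falling order without overlap, and among the 8 member probes in that set Bnip3 was the only one. In rising order without overlap there were 2.89% of all probes and 0 of the 8. An ordered fall was thus common among these probes with the median scaling. The share in falling order was not computed with another scaling or filter. The median differences from sham, a different quantity, moved with both. With the 75th percentile the median differences from sham over all probes tested were 0.36 in surviving and 0.27 in dying neurons. With a stricter filter on dim probes they were -0.82 and -0.90.

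The 5 probes of other named genes most like Bnip3, of 9161 that were well above background on every array, were RGD1563144, RGD1566320, Hrpap20, Brd3 and Mic2l1. Pearson's r over the 8 arrays lay between 0.993 and 0.995. The arrays of a group share their treatment and the groups share slides, so the number is a measure of likeness only.

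**Figure D2:**
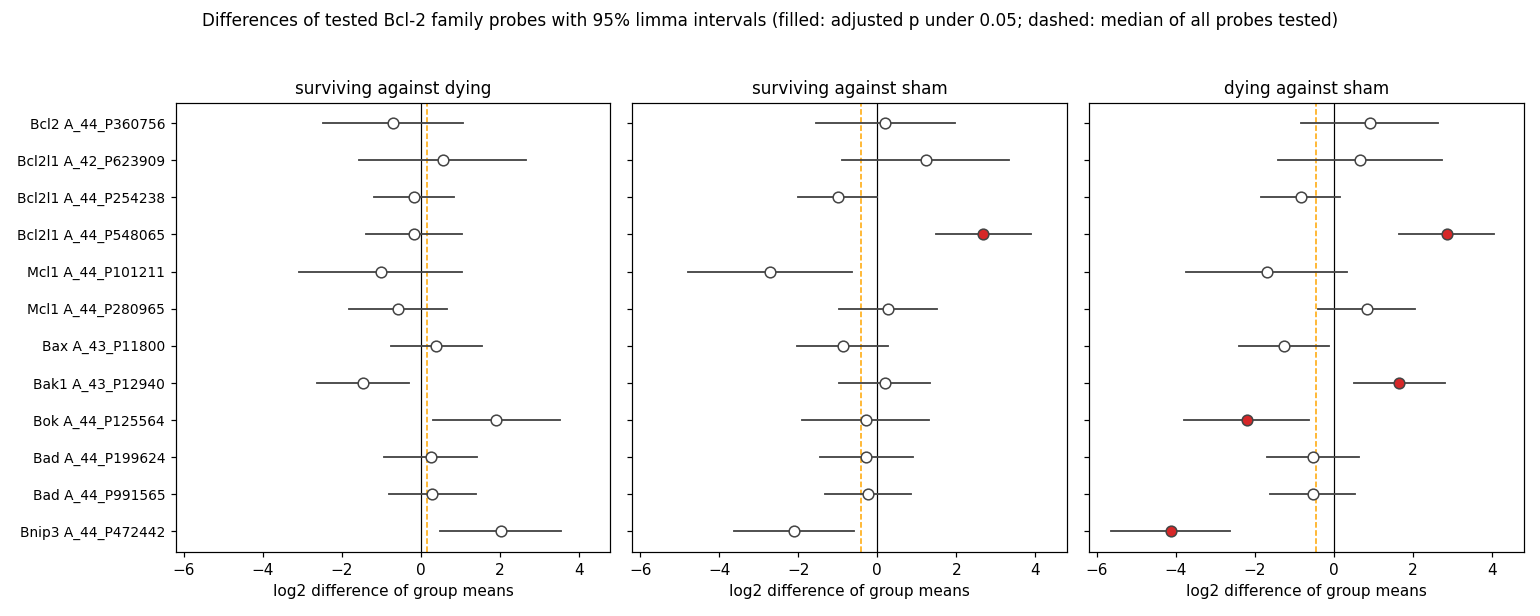
Log2 differences of group means for the 12 member probes tested, with 95% intervals from limma, for surviving against dying, surviving against sham and dying against sham neurons. Filled points have an adjusted p under 0.05 and the dashed line is the median of all probes tested. The only filled points are Bcl2l1 A_44_P548065 in both comparisons with sham, and Bak1, Bok and Bnip3 in dying neurons against sham. Bcl2l1 A_44_P548065 and Bcl2 A_44_P360756 were not above background in sham, so their sizes against sham are not exact. Bcl2l1 A_42_P623909 was not above background on sham replicate 2, nor Mcl1 A_44_P101211 on surviving replicate 2. Their sizes in comparisons with those groups are not exact either.

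Between surviving and dying neurons, the comparison for which the study was made, 12 probes of 8 members were tested and 0 were called, as were 0 of all 27393 probes tested, or 0% (limma). At an unadjusted p under 0.05 there were 5896 of all probes, 21.5%, and 3 of the 12 members, for Bnip3, Bok and Bak1. Both surviving arrays lay above both dying arrays for 30.0% of all probes and for 3 of the 12, of Bnip3, Bok and Bad, and below them for 21.7% of all probes and for 4 of the 12, of Bak1, Bcl2, Bcl2l1 and Mcl1. The difference of Bnip3 had a 95% interval of 0.49 to 3.55, that of Bok 0.30 to 3.51 and that of Bak1 -2.63 to -0.31. Without dying replicate 2 the 3 differences were larger, at 2.99, 2.96 and -1.93. In that fit the spread of the single dying array is borrowed from the rest. Without dying replicate 1 all 3 were smaller in size than with both dying arrays. The study's methods filter for replicates close to each other, read here as within 1.5 times, and then ask for over 2-fold against sham. The study's results also use a fold cut directly between dying and surviving neurons, and the count given there was not compared. Here the 2-fold rule, with the replicate filter, was applied to surviving against dying neurons. It took 4.94% of the 21262 probes that passed the background mark on all 4 arrays and 0 of the 11 member probes among them, though 1 member probe with the median of RefSeq probes and 1 with the series table of the authors. Bnip3, with a ratio of surviving to dying of 3.32, Bok, with 2.98, and Bak1, with 0.350, were past 2-fold, and their dying replicates differed by 3.83, 4.32 and 1.90 times.

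Against sham, 1 of the 12 member probes was called higher in surviving neurons, where 6.82% of all 26909 probes were, and 0 were called lower, where 12.0% were. In dying neurons 2 of the 12 were called higher and 2 lower, against 15.1% and 29.0% of all 25628 probes. The higher call in surviving neurons and 1 of the 2 in dying neurons are the Bcl2l1 probe A_44_P548065, which was above background in no control. Bak1 is the only higher call with signal above background on both sides. Both comparisons share the sham arrays. The median difference of the member probes was -0.26 in surviving and -0.53 in dying neurons, against -0.43 and -0.46 over all probes. The split of all calls depended on scaling: 65.8% of the calls in dying neurons were lower with the median and 40.3% with the 75th percentile, and in surviving neurons 63.9% and 26.6%. Sham against naïve gave 0 calls among 10 member probes and 0 of all 20679 probes tested, or 0%. At an unadjusted p under 0.05 (limma) there were 997 of the 20679 probes and 2 of the 10, for Bak1 and Mcl1 A_44_P280965, both higher in sham. The sham mean was above the naïve mean for 9 of the 10, against a median difference of 0.37 over all probes, with Bid as the exception, and Bax, Bok and one Bad probe turned below naïve under other scalings.

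**Figure D3:**
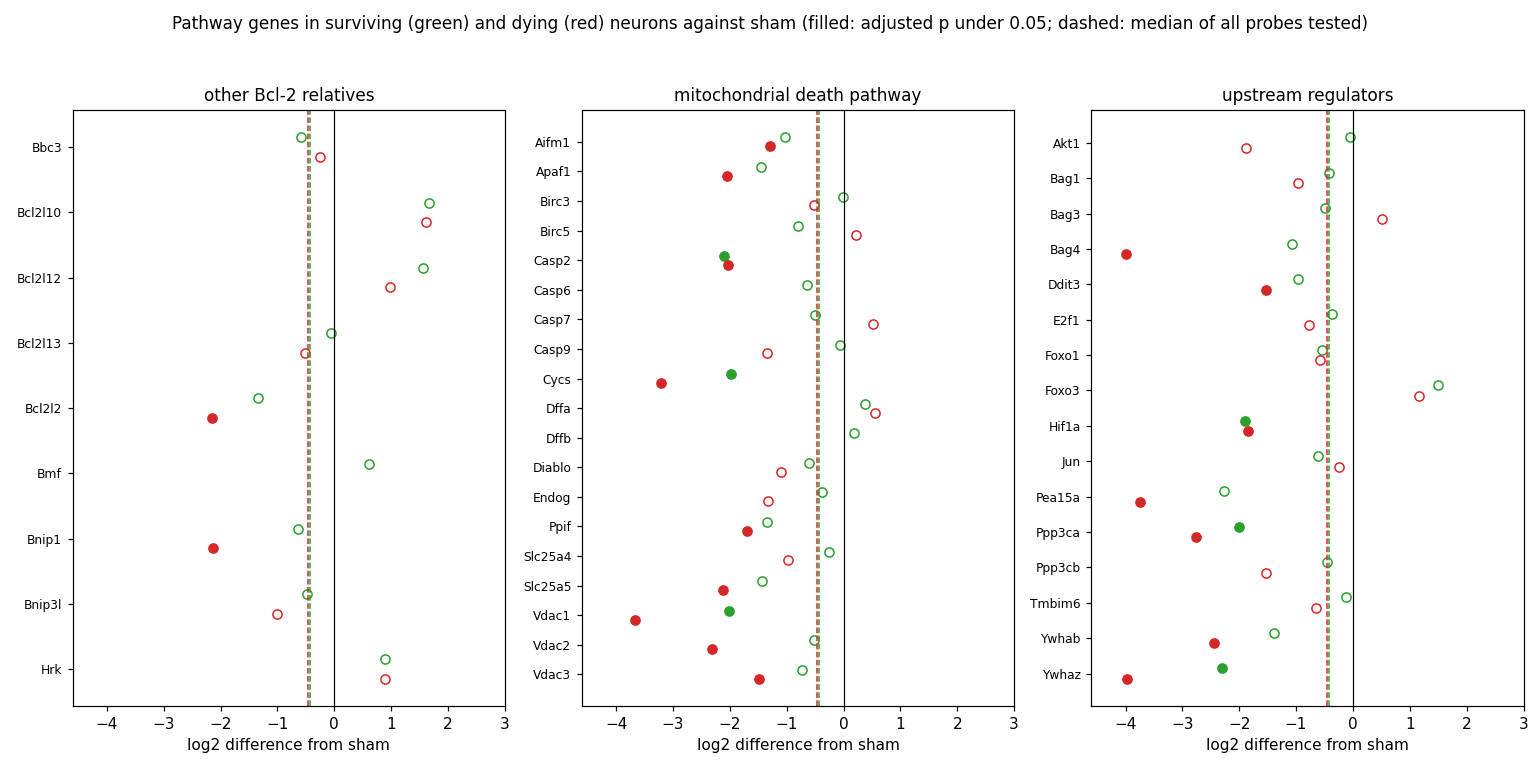
Log2 differences from sham of the genes of 3 lists, without 2 that are not shown, each read from its brightest probe, in surviving (green) and dying (red) neurons. Filled points have an adjusted p under 0.05, dashed lines are the medians of all probes tested, and Foxo3, Bmf and Dffb are not exact in surviving neurons, nor is Foxo3 in dying neurons, since sham was not above background. The same holds for Bag4, Pea15a and Akt1 in dying neurons, which were not above background on replicate 1. Bcl2l12, Birc3 and Casp6 were not above background on sham replicate 2, so their differences are not exact either. All filled points lie below 0, among them Cycs, Vdac1 and Ywhaz in both groups.

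Other relatives of the family were matched by name for 12 of 15 genes. In dying neurons 2 of the 8 tested were called lower than sham, where 29.0% of all probes were, and 0 higher, where 15.1% were, with a median difference of -0.38, near the -0.46 of all probes, and positive in 4 of the 5 other scalings, where it was up to 0.48. They were Bcl2l2, which encodes the neuronal survival protein Bcl-w, and Bnip1, a protein of the endoplasmic reticulum. Bcl2l2 read 7.42 and 6.82 (sham), 5.76 and 5.79 (surviving neurons), 5.08 and 4.87 (dying neurons), in falling order without overlap. It fell by 2.14 from sham in dying neurons (adjusted p = 0.00723) and differed by -1.34 in surviving neurons (adjusted p = 0.0643), and both stayed negative in the 5 other scalings. Bnip1 fell by 2.13 in dying neurons (adjusted p = 0.0188), with 1.49 and 2.97 there against 4.39 and 4.33 in sham. In surviving neurons 0 of 9 were called, where 6.82% of all probes were called higher and 12.0% lower. The mitophagy receptor Bnip3l, the closest relative of Bnip3, differed from sham by -1.01 in dying neurons (adjusted p = 0.0792) and by -0.48 in surviving neurons (adjusted p = 0.425), the latter positive in 4 of 6 scalings and the former in 1. Of the other BH3-only genes, Hrk was 0.89 above sham in both groups (adjusted p = 0.268 in dying and 0.339 in surviving neurons), and it was called in dying neurons in 1 of 6 scalings, quantile normalization, at 1.96. Bbc3, which encodes Puma, was 0.25 and 0.58 below sham in dying and surviving neurons (adjusted p = 0.661 and 0.365), and both positive in 4 of 6 scalings. Bmf was well above background on 4 arrays and Bcl2a1 on 1. Pmaip1 was not matched by name here.

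Of 24 genes listed for the caspases, their inhibitors and the mitochondrial steps of cell death, 23 were on the array. In dying neurons 10 of 18 tested were called lower than sham and 0 higher, against 29.0% and 15.1% of all probes, with a median difference of -1.41 against -0.46. With other scalings 0 to 5 of the 18 were called lower, and the median stayed between -1.42 and -0.63. In surviving neurons 3 of 20 were called lower and 0 higher, against 12.0% and 6.82% of all probes, and 0 were called with 4 of the 5 other scalings. Their median was -0.69 against -0.43, and it turned to 0.09 with the 75th percentile scaling and 0.19 with the series table of the authors. Cycs, which encodes cytochrome c, read 10.79 and 10.27 (sham), 8.55 and 8.54 (surviving neurons), 7.10 and 7.54 (dying neurons). The groups did not overlap, and Cycs fell by 1.98 in surviving (adjusted p = 0.0233) and by 3.21 in dying neurons (adjusted p = 0.00228). The pore protein gene Vdac1 fell by 2.02 (adjusted p = 0.0371) and 3.68 (adjusted p = 0.00255), and Casp2, an initiator caspase, by 2.10 (adjusted p = 0.0168) and 2.03 (adjusted p = 0.00754). Other calls in dying neurons were Apaf1, which fell by 2.06 (adjusted p = 0.0150), Vdac2, by 2.31, Vdac3, by 1.48, Slc25a5, by 2.12, Ppif, by 1.70, and Aifm1, by 1.29. Vdac2 read 1.25 and 3.48 in dying neurons against 5.04 and 4.31 in sham, so most of its fall lies in replicate 1. Casp9 and Diablo were 1.34 and 1.10 below sham in dying neurons (adjusted p = 0.0835 and 0.0702, with Diablo positive in 1 of 6 scalings), and Xiap was well above background on 1 array.

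Of the upstream regulators, 17 of 18 were on the array and tested. In dying neurons 7 were called lower than sham and 0 higher, against 29.0% and 15.1% of all probes, with a median of -1.53 against -0.46. With the series table of the authors 6 were called lower and 2 higher, where 4326 and 7360 of 25646 probes were, and with quantile normalization 4 and 1, where 4057 and 5198 of 25628 were. With the normexp correction 0 were called, as were 0 of all probes. In surviving neurons 3 were called lower and 0 higher, against 12.0% and 6.82% of all probes, and 0 were called lower in 4 of the 5 other scalings. Their median of -0.61 was positive in those 4. In dying neurons Ywhaz and Ywhab, which encode the 14-3-3 proteins that hold phosphorylated Bad in the cytosol, fell by 3.97 (adjusted p = 0.00237) and 2.44 (adjusted p = 0.00996). The calcineurin subunit gene Ppp3ca, whose enzyme removes phosphate from Bad, fell by 2.77 (adjusted p = 0.00623). The stress factor gene Ddit3 fell by 1.53. Bag4 and Pea15a were also called lower, and since neither was above background on dying replicate 1 no size is given. Hif1a, which encodes the oxygen-regulated subunit of HIF-1, fell by 1.85 in dying (adjusted p = 0.0106) and by 1.90 in surviving neurons (adjusted p = 0.0229), and its RNA does not show the protein, which is set by its breakdown. Ywhaz and Ppp3ca were the other calls in surviving neurons, at -2.30 and -2.01. Jun was not called against sham, and its difference in dying neurons, -0.25, turned positive in 4 of 6 scalings. Foxo3 was not called (adjusted p = 0.135 in dying and 0.110 in surviving neurons), and with 0 sham arrays well above background no size is given. With the series table of the authors it was called higher in both groups (adjusted p = 0.0371 and 0.0301). In dying neurons this is 1 of the 2 higher calls given above for that setting. As Foxo3 was above background on no control array, it entered these tests only through the injured groups where it was high. The genes called in the 3 lists kept their sign in the 5 other scalings, while many calls were lost. Sizes also shrank, in dying neurons down to -0.08 for Aifm1, -0.41 for Ddit3 and -0.52 for Ppif. Each call in surviving neurons was made in 2 of the 6 scalings. In dying neurons Ppif, Aifm1, Vdac2, Vdac3 and Ddit3 were called in 1, Bnip1 in 2, Apaf1 in 3, Bcl2l2, Casp2, Slc25a5, Hif1a and Ywhab in 4, and Cycs, Vdac1, Ywhaz, Ppp3ca, Pea15a and Bag4 in 5.

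**Figure D4:**
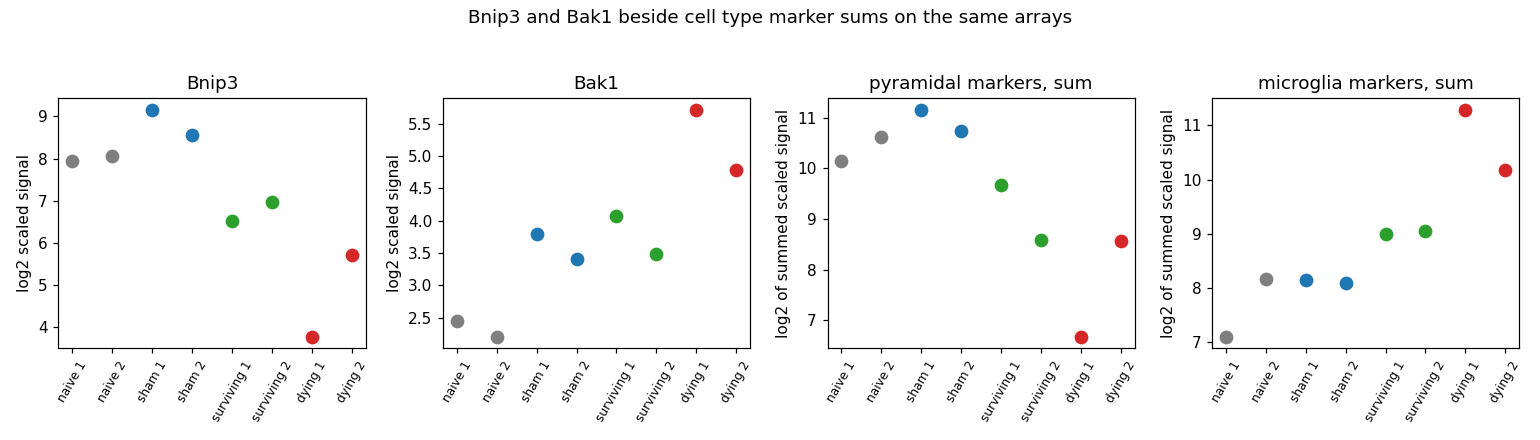
Log2 scaled signal of Bnip3 and Bak1, and log2 of the summed scaled signals of pyramidal neuron and microglia markers, on each of the 8 arrays. On dying replicate 1 the pyramidal sum and Bnip3 are lowest and the microglia sum and Bak1 are highest.

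Of 10 pyramidal neuron markers 8 were on the array, and at least 7 of them were well above background on every array, with Snap25 the most abundant. Their summed scaled signal was 1133 and 1581 (naïve), 2291 and 1702 (sham), 821 and 383 (surviving neurons), 102 and 380 (dying neurons). Snap25, the largest part of the sum on each array, read 10.99 and 10.49 (sham), 8.89 and 7.25 (surviving neurons), 6.20 and 7.63 (dying neurons). Over the 8 markers the median difference from sham was -2.08 in dying neurons, with 2 of 8 called lower, against -0.46 and 29.0% of all probes. In surviving neurons it was -0.42, with 1 of 8 called lower and 3 above sham, against -0.43 and 12.0% of all probes, and it was positive in 4 of the 5 other scalings. Each marker read lower on dying replicate 1 than on replicate 2, with Nefl at 1.01 and 6.01. The dying median is thus lower than replicate 2 alone would give. The sum was lowest on dying replicate 1, the array with the lowest Bnip3 and Bok and the highest Bak1. All 11 microglia and macrophage markers were on the array, and their sum was 136 and 288 (naïve), 282 and 273 (sham), 509 and 529 (surviving neurons), 2509 and 1157 (dying neurons), the last without Lgals3, whose spot was not uniform there. The microglia sum was highest in dying neurons and the pyramidal sum was highest in sham. Against sham 7 of 10 microglia markers tested were called higher in dying neurons, where 15.1% of all probes were, and 2 of 11 in surviving neurons, where 6.82% were. Lgals3 is not a marker of microglia alone, since the study also stained its protein in degenerating neurons, and without it 6 of 9 were called in dying and 1 of 10 in surviving neurons. Aif1 and Csf1r were below sham in both, by 0.14 and 0.34 in dying and 1.59 and 0.54 in surviving neurons, with no call, though all 10 were above sham in dying neurons in 4 of the 5 other scalings. The 4 markers of CA3 summed to 737 and 561 (sham), 235 and 212 (surviving neurons), 39.7 and 150 (dying neurons). Cpne4 is its largest part on each array, and in surviving neurons the median of the 4 was -0.37 against -0.43 over all probes, with Grik4 0.32 above sham. In dying neurons the median of the 4 was -2.86, with 2 of 4 called lower, against -0.46 and 29.0% of all probes. It was between -2.47 and -1.66 in the other scalings. The part of these shifts in the values of Bnip3, Bok, Bak1 and the pathway genes was not tested, and in pooled captures fewer cells of a type and less RNA per cell cannot be told apart.

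The sums of the other lists were mixed. Astrocyte markers, 5 of 6 on the array and led by Slc1a3, summed to 1158 and 745 (sham), 407 and 422 (surviving neurons), 980 and 438 (dying neurons). Interneuron markers, 6 of 6 and led by Pvalb, summed to 416 and 394, 164 and 147, and 676 and 159 in the same order. The 676 is mostly Sst and Vip, at 8.50 and 7.85 there, while Pvalb was at 5.85, its lowest of the 8 arrays. Oligodendrocyte markers, 4 of 6 and led by Mog, summed to 219 and 289, 56.0 and 61.5, and 176 and 70.0. In these 3 lists the sum on dying replicate 1 was above those of the other injured arrays through a few genes, Slc1a3, Sst, Vip and Mog, while Gfap was lowest on that array. The 2 precursor markers summed to 165 on that array against 22.4 to 48.4 on the other 3, mostly from Cspg4, and 5 of 6 vascular markers to 170 against 32.6 to 45.6, mostly from Pdgfrb. The leukocyte sum was 14.4 and 19.1 in dying neurons and at most 4.68 on any other array. In this list S100a8 and S100a9 were the bulk of the dying signal, and Ptprc, Cd3e and Cd8a were each well above background on 1 or 2 of 8 arrays.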

How the data were processed

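The authors deposited 1 file per array from Agilent Feature Extraction 9.1.3.1, with a processed intensity per spot, from which background and spatial trends had been removed without normalization between arrays, mean and background intensities before correction, and 0 or 1 marks telling whether a spot was well above background, saturated or not uniform. In the deposited series table the authors divided the signal by 1 constant per array; its medians ran from 0.131 to 0.282, and its scale is unknown. Non-uniform spots were dropped, spots of a probe averaged, arrays divided by their median as in the methods, values under 0.01 set to 0.01 and the log2 taken. A probe was above background on an array where at least 0.5 of its spots were. A model of 4 groups was fitted to 8 arrays with limma 3.58.1 in R 4.3.3, with 4 residual degrees of freedom, two-sided tests and Benjamini-Hochberg adjustment over all probes tested in a comparison. Each member probe was read alone and each list gene from its brightest probe; the list genes named are 17 named whatever their values and all past the threshold, save 2 that are counted and not shown. The likeness rule used the member of largest SD. The fit was tested on simulated data. Members and lists were chosen with earlier results of these data known.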

Additional observations from a re-analysis of the deposited data

How the results depend on the processing

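Over 19 other settings, 865 values of 46 member results were compared: 769 kept direction and side of the threshold, 59 reversed, 26 lost the threshold and 11 gained it, and 0 of the called results reversed. The cause was not tested. With 2 arrays per group, weak signals and an amplified RNA, dim probes limit what can be read.

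With the 75th percentile, the reversed differences from sham were, in surviving neurons, Bok 0.49 and Bad 0.50 (A_44_P199624) and 0.54 (A_44_P991565), and in dying neurons Bad 0.20 and 0.19. Sham against naïve gave Bax -0.0509 and Bok -0.27. With quantile normalization they were, in surviving neurons, Bok 0.70 and Bad 0.57 and 0.57, and in dying neurons Bad 0.27 and 0.58 and Bcl2l1 A_44_P254238 0.39. Surviving against dying gave Bad A_44_P991565 -0.00841, and sham against naïve Bax -0.0655, Bok -0.36 and Bad A_44_P991565 -0.14. With the normexp correction, surviving against dying gave Bcl2l1 1.07 (A_44_P254238) and 0.19 (A_44_P548065) and Mcl1 A_44_P280965 0.75. Surviving against sham gave Bax 0.0505, Bok 0.88, Bad 0.70 and 0.81, Bcl2l1 A_44_P254238 0.0772 and Bcl2 A_44_P360756 -0.0460, and dying against sham Bcl2l1 A_42_P623909 -0.00387. With the median of RefSeq probes, surviving against dying gave Bad -0.0851 and -0.0421, and sham against naïve Bok -0.14. With non-uniform spots kept, sham against naïve gave Bid 0.0300. With the authors' series table, surviving against sham gave Bax 0.00517, Bok 0.58 and Bad 0.60 and 0.64, dying against sham Bad 0.27 and 0.27, and sham against naïve Bax -0.0889, Bok -0.30 and Bad A_44_P991565 -0.0205.

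Counts of called probes moved by over 1.5 times as follows. Sham against naïve gave 1 with quantile normalization and 118 with only the 2 groups compared, against 0. With the normexp correction surviving and dying neurons against sham gave 0 and 0 (2494 and 2347 at an unadjusted p under 0.05), and the 2-fold rule 303. The stricter filter on dim probes, which tests fewer probes, gave 3109 and 7157. Surviving against dying gave 2 with the authors' series table, and surviving against sham gave 12161 with only the 2 groups compared.

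With 1 array left out in turn, the single array left in a group is given the spread of the rest, an assumption. The calls ranged from 0 to 5994 for surviving against dying, 253 to 8557 for surviving against sham, 3047 to 13425 for dying against sham and 0 to 22 for sham against naïve. The 2-fold rule ranged from 1050 to 6651, since a lone array has no replicate ratio. Differences that reversed ranged, for surviving against dying, from -0.25 to 1.36 for Bcl2l1 A_42_P623909, -0.0575 to 0.84 for Bax, -2.47 to 0.43 for Mcl1 A_44_P101211, -0.66 to 0.31 for Bcl2l1 A_44_P548065 and -0.11 to 0.69 for Bad A_44_P991565. For surviving against sham they ranged from -0.000919 to 2.44 for Bcl2l1 A_42_P623909, -0.11 to 0.48 for Bak1, -0.62 to 0.0671 for Bad A_44_P199624, -0.20 to 0.72 for Mcl1 A_44_P280965 and -0.26 to 0.67 for Bcl2 A_44_P360756. For dying against sham Bcl2l1 A_42_P623909 ranged from -0.55 to 1.89. For sham against naïve the ranges were -0.11 to 0.59 for Bax, -0.19 to 0.24 for Bok, -0.10 to 0.87 for Bad A_44_P199624 and -1.01 to 0.99 for Bid. In this section, differences of Bcl2 A_44_P360756, Bcl2l1 A_42_P623909 and Bid that involve sham are not exact sizes. For each, at least 1 sham array was not above background. The same holds for Mcl1 A_44_P101211 in surviving neurons, where replicate 2 was not above background.

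The groups share replicate numbers. With the number as a replicate block, the calls were 0 for surviving against dying, 3488 for surviving and 10396 for dying neurons against sham, and 0 for sham against naïve, and Mcl1 A_44_P101211 in surviving neurons, not above background on replicate 2, passed against sham (adjusted p = 0.0435). Deviations of same-numbered arrays had an r of -0.19 between surviving and dying neurons and of -0.06 to 0.07 between other groups. A crossed pairing of surviving and dying arrays, chosen after seeing the data, gave 466 calls between them against 0.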
